A study of Bos taurus with 29 samples.

Results

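OOSP2 and ACCSL are 2 of the 13502 genes listed in a table of messenger RNA levels from single cattle oocytes. They were chosen by name because their levels after maturation were high in these same data, so their differences between groups describe the choice as much as the oocytes and carry no test. OOSP2 encodes oocyte-secreted protein 2, a small secreted protein related to the placental protein PLAC1 and made chiefly by the oocyte within the ovary. ACCSL encodes a protein named for its likeness to plant 1-aminocyclopropane-1-carboxylate synthase, the enzyme of the ethylene pathway, and belongs with ACCS to the large family of enzymes that hold pyridoxal phosphate. A full-grown oocyte is nearly silent in transcription. During maturation, stored messenger RNAs gain or lose poly(A) tail, are translated or are degraded, and the make-up of a library primed on poly(A) shifts with all of these.

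The study set oocytes at the germinal vesicle stage (GV), before meiosis resumes, beside metaphase II oocytes from 2 culture systems, all of them labelled wild type and collected from donor cattle given follicle stimulating hormone (FSH). GV oocytes were freed of cumulus cells at collection. IVM oocytes were matured in their cumulus complexes for 22 h in medium with serum, epidermal growth factor (EGF) and FSH. CNP_IVM oocytes had the same 22 h after 6 h of pre-maturation without EGF, in which the medium held C-type natriuretic peptide (CNP) at 200 nM. CNP acts on cumulus cells to keep meiosis arrested through cyclic GMP. With 28 h of culture in all, CNP and the longer time cannot be told apart.

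Oocytes with a column in the table numbered 7 for GV, 8 for IVM and 7 for CNP_IVM, while 7 other labelled samples have no column matched to them and were not analysed here. Libraries held from 20159662 to 39340040 reads. Each library is 1 oocyte and no donor is named, so each group counts as 1 sample. SDs and ranges show the spread between these oocytes, not between animals, and no p-value is given. Levels are CPM, the reads of a gene scaled to a fixed library total. A CPM is a share of the library and is not corrected for transcript length, so levels are compared between oocytes and not between genes. More copies of a transcript, a longer tail and a smaller remainder of the library cannot be told apart on this scale.

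GV replicate 9 stands apart from its group. Its title says GV while its treatment label says in vitro maturation, and its library reached 1 CPM for 9381 genes, fewer than the 11311 to 11798 of its group. It was grouped by its title. Differences of OOSP2 and ACCSL from GV, list counts and nearest genes are also given without it. The tissue label was checked against 10 oocyte markers, all of which were in the table. Summed, they ranged over 14656 to 21452 CPM (GV, or to 19785 without replicate 9), 10852 to 17328 CPM (IVM) and 9795 to 13833 CPM (CNP_IVM). Of 20 cumulus and granulosa cell markers, 16 were in the table and none of the 16 was at 0 throughout a group. Those averaging under 1 CPM numbered 3 in GV, 6 in IVM and 5 in CNP_IVM. The sum of the 16 ranged over 641 to 1060 CPM (GV, or to 938 without replicate 9), 381 to 657 CPM (IVM) and 258 to 346 CPM (CNP_IVM). STAR, of steroid synthesis, was its largest member in GV (mean 657 of 805 CPM) and IVM (316 of 507 CPM). In CNP_IVM the largest was HAS2 (118 of 303 CPM). Of 9 blood and immune markers, 5 were in the table, with CD68 at 0 in every CNP_IVM oocyte. Their sums were 173 to 362 CPM (GV), 8.42 to 46.8 CPM (IVM) and 3.53 to 25.7 CPM (CNP_IVM). Most of this was VWF. It averaged 225, 21.1 and 11.2 CPM in GV, IVM and CNP_IVM, beside mean sums of 255, 25.3 and 12.7 CPM. In each group 3 of the 5 averaged under 1 CPM. The marker sums move in the opposite direction to OOSP2 across the groups, and their part in its differences was not tested.

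OOSP2 was lowest in GV, intermediate in IVM and highest in CNP_IVM oocytes. In GV oocytes it lay between 387 and 1867 CPM with a median of 1773 CPM. The lowest value was that of replicate 9, and the other 6 oocytes were close together at 1499 to 1867 CPM. In IVM oocytes OOSP2 ranged from 1820 to 4749 CPM with a median of 2791 CPM. Replicates 8 and 9, at 1832 and 1820 CPM, lay within the GV range, and the other 6 lay above it. In CNP_IVM oocytes it ranged from 6072 to 11555 CPM with a median of 8913 CPM, so every CNP_IVM oocyte was above every oocyte of the other groups.

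The group means of OOSP2 were 1538 ± 526 CPM (SD, n = 7) in GV, 3197 ± 1227 CPM (SD, n = 8) in IVM and 8400 ± 2076 CPM (SD, n = 7) in CNP_IVM oocytes. IVM was 2.08-fold above GV, a log2 difference of 1.05 with a pseudocount of 1 CPM. The groups overlapped, and leaving out any of 4 single oocytes took this difference under 2-fold: it was 0.89 without GV replicate 9, and 0.95, 0.95 and 0.98 without IVM replicates 5, 6 and 7. CNP_IVM was 5.46-fold above GV (log2 difference 2.45, or 2.28 without GV replicate 9) and 2.63-fold above IVM (log2 difference 1.39). Counting error was small beside these gaps: reads summed over a group gave 1503, 3081 and 8448 CPM in GV, IVM and CNP_IVM, with 95% exact Poisson intervals of 1498 to 1508, 3075 to 3088 and 8437 to 8459 CPM. Such intervals cover the counting of reads and not of RNA molecules, since amplified reads are not independent.

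ACCSL followed another order, lowest in GV, highest in IVM and between them in CNP_IVM oocytes. In GV oocytes ACCSL lay between 2359 and 5178 CPM with a median of 2693 CPM, and replicate 7 was the highest. In IVM oocytes it ranged from 5206 to 15178 CPM with a median of 11966 CPM, and each of the 8 was above every GV oocyte. In CNP_IVM oocytes it ranged from 4098 to 7466 CPM with a median of 6120 CPM. Of these, 5 of 7 lay above every GV oocyte. All 7 lay above the 6 GV oocytes other than replicate 7, whose highest value was 3754 CPM.

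The group means of ACCSL were 3116 ± 1020 CPM (SD, n = 7) in GV, 10576 ± 3795 CPM (SD, n = 8) in IVM and 5851 ± 1088 CPM (SD, n = 7) in CNP_IVM oocytes. IVM was 3.39-fold above GV, a log2 difference of 1.76 (1.72 without GV replicate 9). CNP_IVM was 1.88-fold above GV, a log2 difference of 0.91 (0.86 without GV replicate 9). This value was not stable about 2-fold: it came to 1.08 without GV replicate 7 and to 1.47 with TMM library factors, with which every CNP_IVM oocyte lay above every GV oocyte. Against IVM, ACCSL in CNP_IVM had a log2 difference of -0.85, with IVM 1.81-fold higher. These groups overlapped, and 2 of 7 CNP_IVM oocytes lay below every IVM oocyte. Summed reads gave 3140, 11002 and 5859 CPM for ACCSL in GV, IVM and CNP_IVM, with 95% exact Poisson intervals of 3132 to 3147, 10989 to 11014 and 5850 to 5868 CPM.

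**Figure D1:**
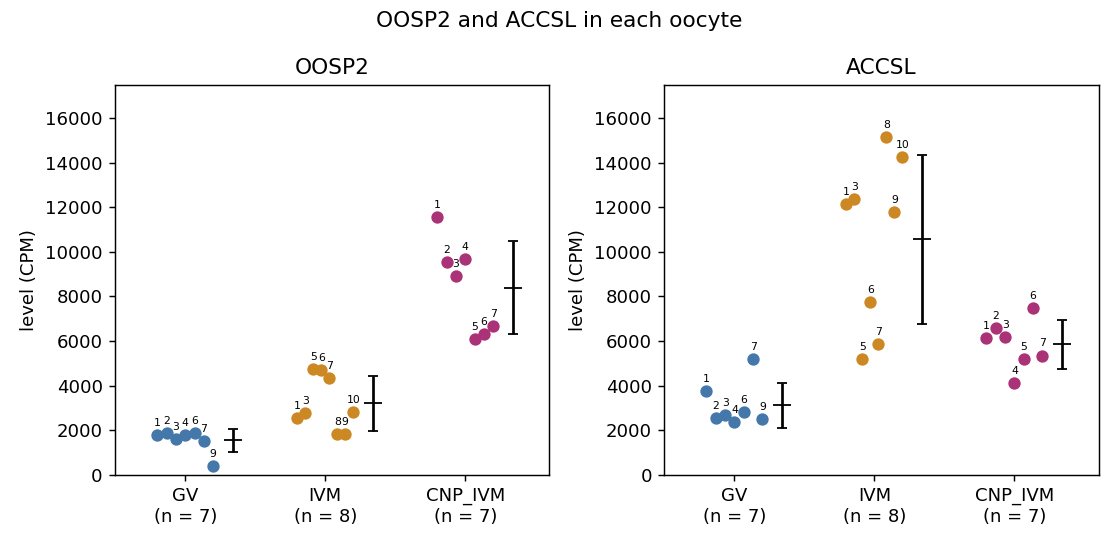
Level of OOSP2 (left) and ACCSL (right) in CPM in each oocyte of the 3 groups, with replicate numbers beside the points and the mean and SD of the group as a bar to their right. OOSP2 is highest in CNP_IVM oocytes (6072 to 11555 CPM), while ACCSL is highest in 5 of the 8 IVM oocytes (11785 to 15178 CPM).

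Both transcripts were abundant. By group mean, OOSP2 stood at place 44 of all listed genes in GV, 22 in IVM and 6 in CNP_IVM oocytes, and ACCSL at places 19, 4 and 10. Without GV replicate 9 the places in GV were 39 and 17. Ranks are by CPM, so long transcripts are favoured, and moves in rank between oocytes are what they show. Within single oocytes the rank of OOSP2 was 34 to 44 in 6 GV oocytes and 439 in replicate 9. It was 13 to 45 in IVM and 5 to 10 in CNP_IVM oocytes, without overlap between the culture systems. The rank of ACCSL was 8 to 27 in GV, 1 to 12 in IVM and 6 to 15 in CNP_IVM oocytes. ACCSL was the top-ranked gene of the library in IVM replicates 8 and 9.

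**Figure D2:**
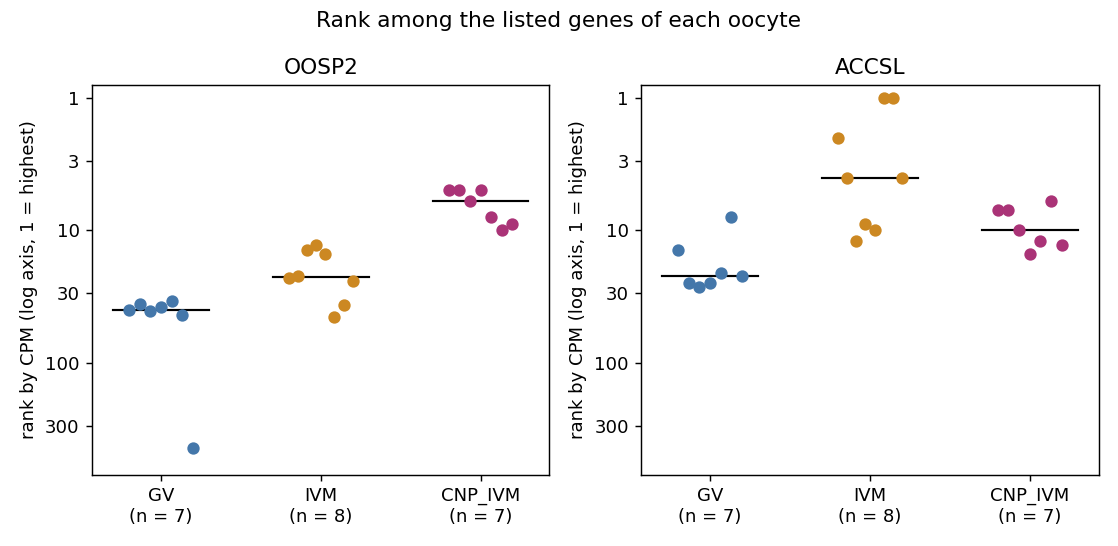
Rank by CPM of OOSP2 (left) and ACCSL (right) among the 13502 listed genes of each oocyte, on a log axis with 1 at the top, and the group median as a line. OOSP2 ranks 5 to 10 in every CNP_IVM oocyte, and ACCSL reaches rank 1 in 2 IVM oocytes.

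The genes next to the members in the order of group means show where their CPM stood, which is not an order of transcript numbers, since length is not corrected for. OOSP2 stood between the proteasome subunit gene PSMA7 (1554 CPM) and TMEM225B (1538 CPM) in GV. In IVM it stood between DPPA3 (3267 CPM), a maternal factor that protects DNA methylation, and the ferritin light chain gene FTL (3151 CPM). In CNP_IVM its neighbours were CKS1B (9364 CPM), a partner of cyclin-dependent kinases, and PAIP1 (7182 CPM), which binds poly(A)-binding protein. ACCSL stood between the zona pellucida genes ZP2 (3134 CPM) and ZP3 (3058 CPM) in GV, between TMSB4X (12987 CPM), which sequesters actin, and the ubiquitin gene UBB (8216 CPM) in IVM, and between UBB (6466 CPM) and DPPA3 (4755 CPM) in CNP_IVM. In every one of these pairs the ranges of the 2 genes overlapped. Within single oocytes the order of a pair could differ from that of the means: OOSP2 was above PSMA7 in 6 of 7 GV oocytes, and above CKS1B in 1 of 7 CNP_IVM oocytes. The most abundant gene by group mean was UBB in GV (19813 CPM) and BTG4, an adaptor of messenger RNA deadenylation, in IVM (19952 CPM) and CNP_IVM (32075 CPM).

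Together OOSP2 and ACCSL made up 0.465 ± 0.119% of the library (SD, n = 7) in GV (0.495 ± 0.0978% without replicate 9, n = 6), 1.38 ± 0.275% (SD, n = 8) in IVM and 1.43 ± 0.225% (SD, n = 7) in CNP_IVM oocytes. The summed share thus differed little between the culture systems while its make-up did not stay the same. The ratio of ACCSL to OOSP2 within an oocyte is unaffected by any single factor that scales its library, and transcript length cancels when oocytes are compared. This ratio lay between 1.32 and 6.42 with a median of 1.69 in GV, where replicate 9 gave the highest value and the others reached 3.45. It lay between 1.10 and 8.28 with a median of 4.63 in IVM and between 0.423 and 1.18 with a median of 0.692 in CNP_IVM oocytes. Every CNP_IVM oocyte was below every GV oocyte in this ratio. Against IVM, 6 of 7 were below every oocyte, and CNP_IVM replicate 6, at 1.18, lay just above IVM replicate 5, at 1.10. The mean of the log2 ratios of single oocytes in CNP_IVM differed by -2.23 from that in IVM and by -1.61 from that in GV (-1.35 without GV replicate 9).

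The IVM oocytes were not alike in either gene, and those low in one were high in the other. Replicates 5, 6 and 7 had OOSP2 at 4749, 4699 and 4359 CPM and ACCSL at 5206, 7759 and 5879 CPM. Replicates 1, 3, 8, 9 and 10 had OOSP2 at 1820 to 2808 CPM and ACCSL at 11785 to 15178 CPM. With a gap between these oocytes in both genes, no correlation is given over the 8. Replicates 5, 6 and 7 also had fewer genes at 1 CPM or more (9431 to 9817, against 10400 to 10783) and a lower sum of cumulus and granulosa markers (381 to 439 CPM, against 491 to 657 CPM). Their BTG4 level was 23789 to 28829 CPM, against 11543 to 21010 CPM in the other 5. The part of these measures in the split was not tested. Their values for OOSP2 and ACCSL lay nearer to those of CNP_IVM oocytes than the other 5 did.

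**Figure D3:**
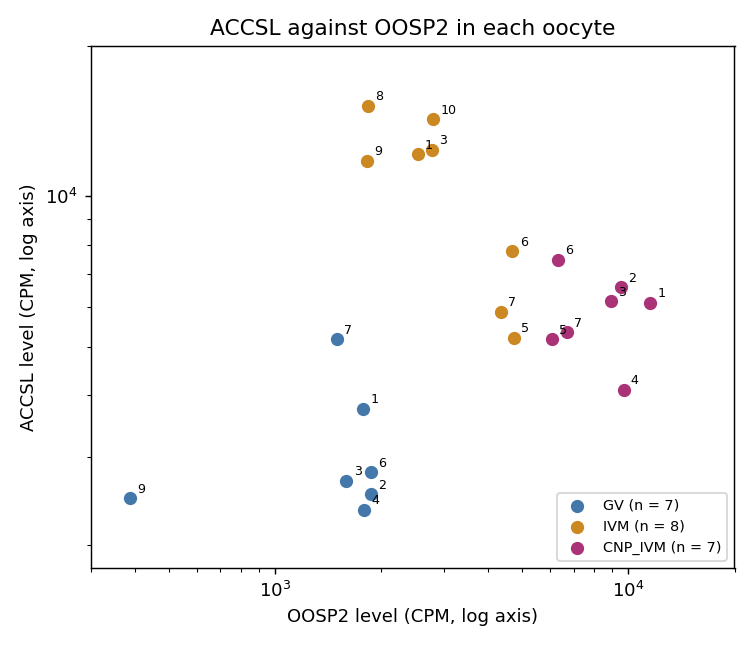
ACCSL against OOSP2 in CPM on log axes, 1 point per oocyte with its replicate number, coloured by group. GV oocytes lie low in both genes apart from replicate 9 at far lower OOSP2, 5 IVM oocytes lie at high ACCSL, and IVM replicates 5, 6 and 7 lie towards the CNP_IVM oocytes at high OOSP2.

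CNP_IVM oocytes also differed among themselves in OOSP2. Replicates 1 to 4 had 11555, 9545, 8913 and 9698 CPM, and replicates 5, 6 and 7 had 6072, 6324 and 6691 CPM. ACCSL did not follow this split: its lowest value, 4098 CPM, was in replicate 4 and its highest, 7466 CPM, in replicate 6. Summed transcripts of the mitochondrial genome, which vary widely in this group, were 7908 to 30207 CPM in replicates 1 to 4 and 14897 to 17658 CPM in replicates 5 to 7. Taking those transcripts out of the library total left the log2 difference of OOSP2 between CNP_IVM and IVM at 1.41.

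Set against all 11852 genes that reached 1 CPM in 6 or more libraries, OOSP2 and ACCSL were both in the share at least 2-fold higher in IVM than in GV, which held 15.9% of the genes. In CNP_IVM against GV that share was 15.3% and held OOSP2 but not ACCSL. In CNP_IVM against IVM it was 1.86%, OOSP2 among them. Genes lower by 2-fold or more made up 33% in IVM against GV, 42% for CNP_IVM beside GV and 14.8% for CNP_IVM beside IVM, where ACCSL (-0.85) stayed inside that limit. Every IVM oocyte was higher than every GV oocyte for 11.5% of genes, and every CNP_IVM oocyte was higher than every GV oocyte for 12.9% and than every IVM oocyte for 1.38%. ACCSL was in the first of these, and OOSP2 in the second and the third. Since the members were picked for such differences, these shares are context and nothing is read from them. The CNP_IVM and IVM comparisons with GV share the GV oocytes and are not independent.

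The median log2 difference over all genes was not 0: it was -0.28 for IVM less GV, -0.61 for CNP_IVM less GV and -0.28 for CNP_IVM less IVM. Relative to it and in that order, OOSP2 stood at 1.34, 3.06 and 1.68, and ACCSL at 2.05, 1.52 and -0.57. Among the 162 genes with a mean of 1000 CPM or more in IVM or CNP_IVM, 18 were higher by 2-fold or more in CNP_IVM and 15 were lower to that extent, with a median log2 difference of 0.17. In that order OOSP2 was at place 7 and ACCSL at place 140. In IVM against GV ACCSL was at place 7 and OOSP2 at place 53 of the 173 genes with such a mean in either group. Their median was 0.68, with 58 higher by 2-fold or more and 39 lower. In CNP_IVM against GV OOSP2 was at place 5 and ACCSL at place 90 of 181. The median of those was 0.90, with 84 higher and 45 lower. ACCSL, at 0.91, thus lay about the median of the abundant genes there.

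**Figure D4:**
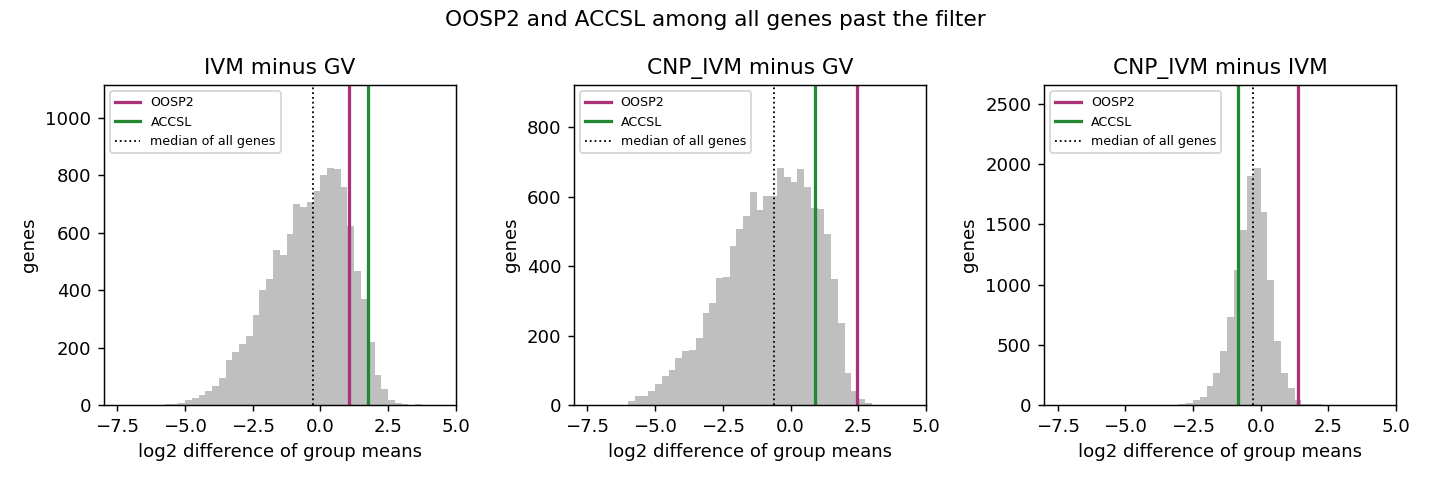
Number of genes by log2 difference of group means (pseudocount 1 CPM) over the 11852 genes past the filter, for the 3 comparisons, with OOSP2 and ACCSL as solid lines and the median of all genes as a dotted line. OOSP2 lies far to the right in both comparisons of CNP_IVM (2.45 and 1.39), while ACCSL lies to the right of the median in the 2 comparisons with GV and to its left in CNP_IVM against IVM.

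The nearest relative of each gene in the table had another order of the groups. The family list of oocyte-secreted proteins held 6 genes, of which OOSP2 and PLAC1 were in the table, and both passed the filter. In the cattle gene table OOSP1 is given as an older name of OOSP2. PLAC1, a secreted protein known from the placenta, had a mean of 28.1 ± 18.4 CPM over GV (SD, n = 7), 12.4 ± 7.33 CPM over IVM (SD, n = 8) and 5.51 ± 2.94 CPM over CNP_IVM oocytes (SD, n = 7). That order is the reverse of OOSP2, with overlapping groups. CNP_IVM (0 to 7.81 CPM) overlapped GV through GV replicate 9 alone, at 0.0545 CPM, and the other 6 GV oocytes lay at 20.1 to 59.9 CPM. ACCS, which lies directly beside ACCSL in the cattle genome, had a mean of 18.6 CPM among GV oocytes (12.8 to 31.2 CPM), of 0.735 CPM after IVM (0.440 to 1.47 CPM) and of 0.219 CPM after CNP_IVM (0 to 0.861 CPM). It was thus lower in every matured oocyte than in every GV oocyte, while ACCSL was higher in every IVM oocyte. Over all genes, every IVM oocyte was below every GV oocyte in 19.9% and above in 11.5%. Every CNP_IVM oocyte was below every GV oocyte in 28%. ACCS and ACCSL are alike in sequence, and whether the counting split reads between them was not tested.

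Other genes of the pyridoxal phosphate enzyme list went both ways. Of 14 genes, 13 were in the table and passed the filter. Without ACCSL, 3 of 12 were higher and 4 lower by 2-fold or more in IVM against GV, with a median log2 difference of -0.64, beside -0.28 over all genes. Over all genes 15.9% were higher and 33% lower to that extent. With 12 genes in the list, nothing is read from its counts in any comparison. For CNP_IVM the same counts were 1 higher and 8 lower against GV (median -1.33, beside -0.61, with 15.3% higher and 42% lower over all genes). Against IVM they were 0 higher and 5 lower (median -0.68, beside -0.28, with 1.86% and 14.8%). Without GV replicate 9 they were 3 and 5 for IVM and 1 and 8 for CNP_IVM against GV. The shares over all genes were then 16.4% and 31.7% for IVM and 14.9% and 40.5% for CNP_IVM. SPTLC1, a subunit of serine palmitoyltransferase that starts sphingolipid synthesis, averaged 35.9, 166 and 147 CPM in GV, IVM and CNP_IVM, and its partner SPTLC2 averaged 78.4, 23.6 and 10.5 CPM. ALAS1, which starts haem synthesis, averaged 46.6, 110 and 37.2 CPM, with every IVM oocyte above every oocyte of the other groups. Over all genes, every IVM oocyte was above every GV oocyte in 11.5% and above every CNP_IVM oocyte in 2.6%.

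Genomic neighbours of the members were described because position played no part in their choice. Of the 3 annotated genes on each side of OOSP2, MRPL16 and TCN1 were in the table. TCN1, which encodes a vitamin B12 binding protein, averaged 14.9, 1.00 and 3.40 CPM in GV, IVM and CNP_IVM. MRPL16, a mitochondrial ribosomal protein gene, averaged 61.2, 32.8 and 27.2 CPM. Around ACCSL, 4 of 6 neighbours were in the table and 3 passed the filter. ALKBH3, a repair enzyme for alkylated DNA and RNA, averaged 139 CPM before culture (109 to 190 CPM), 21.4 CPM after IVM (15.6 to 32.0 CPM) and 8.68 CPM after CNP_IVM (5.68 to 11.4 CPM), with no overlap between any of the groups. Every oocyte was lower for 19.9% of genes in IVM against GV, and for 28% and 2.6% in CNP_IVM against GV and IVM. EXT2, of heparan sulphate synthesis, was at 47.3, 45.8 and 28.8 CPM. None of the 5 neighbours past the filter was higher in both kinds of matured oocyte than in GV. The share of all genes higher in both was not counted. Their median log2 differences from GV were -0.28 in IVM and -0.61 in CNP_IVM, so nothing is read from this. No other annotated gene overlaps OOSP2 or ACCSL in that table.

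Among 44 oocyte-specific and maternal-effect genes, 36 were in the table and passed the filter. Without OOSP2 and ACCSL, 7 of 34 were higher and 8 lower by 2-fold or more in IVM against GV. Over all genes these shares were 15.9% and 33%. In CNP_IVM 3 were higher and 18 lower against GV, beside 15.3% and 42% of all genes, and 0 were higher and 12 lower against IVM, beside 1.86% and 14.8%. Without GV replicate 9 the counts against GV were 6 and 8 for IVM (16.4% and 31.7% of all genes) and 3 and 17 for CNP_IVM (14.9% and 40.5%). With replicate 9 kept, the median log2 differences of the 34 were -0.23, -1.13 and -0.84, beside -0.28, -0.61 and -0.28 over all genes. OOSP2 was the member of the 36 that was at least 2-fold higher in CNP_IVM than in IVM, and next to it in size came BTG4 (log2 difference 0.68) and DPPA3 (0.54). At the other end were PADI6 (-2.97), of the cytoplasmic lattices, ASTL (-2.18), the protease of the cortical granules, and ZP3 (-1.90). DNMT1, the maintenance DNA methyltransferase, averaged 189, 667 and 802 CPM in GV, IVM and CNP_IVM. FIGLA, a transcription factor of oocyte growth, averaged 752, 33.7 and 14.02 CPM, and ZAR1, which binds stored messenger RNA, averaged 1245, 135 and 58.8 CPM.

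Within the summed level of these genes, OOSP2 made up 3.27 ± 1.2% (SD, n = 7) in GV (3.68 ± 0.556% without replicate 9, n = 6), 4.87 ± 1.93% (SD, n = 8) in IVM and 12.1 ± 2.48% (SD, n = 7) in CNP_IVM oocytes. ACCSL made up 6.49 ± 1.8% (6.72 ± 1.85% without GV replicate 9), 15.97 ± 5.42% and 8.56 ± 1.98% in the same groups. The summed level includes OOSP2 and ACCSL themselves. The rest of it averaged 42992, 52304 and 54939 CPM in GV, IVM and CNP_IVM, of which BTG4 was 9807, 19952 and 32075 CPM. The order of the groups was the same on this scale as in CPM for both genes. That follows from the CPM values and is no separate support.

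Genes nearest to each member were found by the root mean square distance between log2 levels, each centred on its own mean, over the 22 oocytes. Each member was compared with the 8070 other named genes whose mean reached 10 CPM in any group. Nearest to OOSP2 were THOC7, of the messenger RNA export complex THO (distance 0.28), PTTG1, which encodes securin (0.30), and MAGOH, of the exon junction complex (0.31). Next came CETN2, a centrin (0.32), and SEC62, of protein translocation into the endoplasmic reticulum (0.34). The median gene was at 1.50, and BTG4 was at 0.49 in place 44. PTTG1 averaged 8081, 15222 and 31069 CPM in GV, IVM and CNP_IVM, and THOC7 averaged 60.5, 120 and 305 CPM. All 5 genes were, like OOSP2, lowest of the GV oocytes in replicate 9: PTTG1 was at 1301 CPM there and at 8030 to 11580 CPM in the other 6, and CETN2 at 85.2 CPM there and at 450 to 652 CPM in the other 6. Without replicate 9, the order of likeness to OOSP2 was SNRPF (0.24), HYPK (0.26), THOC7 (0.26), FAM133B (0.27) and ENY2 (0.28), with PTTG1 in place 6 and MAGOH, CETN2 and SEC62 in places 9, 12 and 8. Those nearest to ACCSL were MTHFD1, of folate metabolism (0.26), ADAM19, a membrane protease (0.27), the deacetylase gene HDAC3 (0.29), CDCA8, which encodes borealin of the chromosomal passenger complex (0.30), and ADD1, of the membrane skeleton (0.33), where the median gene was at 1.09. Without GV replicate 9, ZDHHC3 (0.26) came before MTHFD1, CDCA8, ADAM19 and HDAC3, and ADD1 was in place 8. MTHFD1 averaged 214, 785 and 478 CPM in GV, IVM and CNP_IVM. OOSP2 and ACCSL lay 1.24 from each other, so ACCSL was in place 2893 from OOSP2 and OOSP2 in place 4805 from ACCSL. The groups and the library scale are shared by all these genes, and the distances describe these oocytes. Genes were picked for nearness over these same oocytes. A shared order of groups, or a shared low value in GV replicate 9, is built into that choice and is no separate observation.

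**Figure D5:**
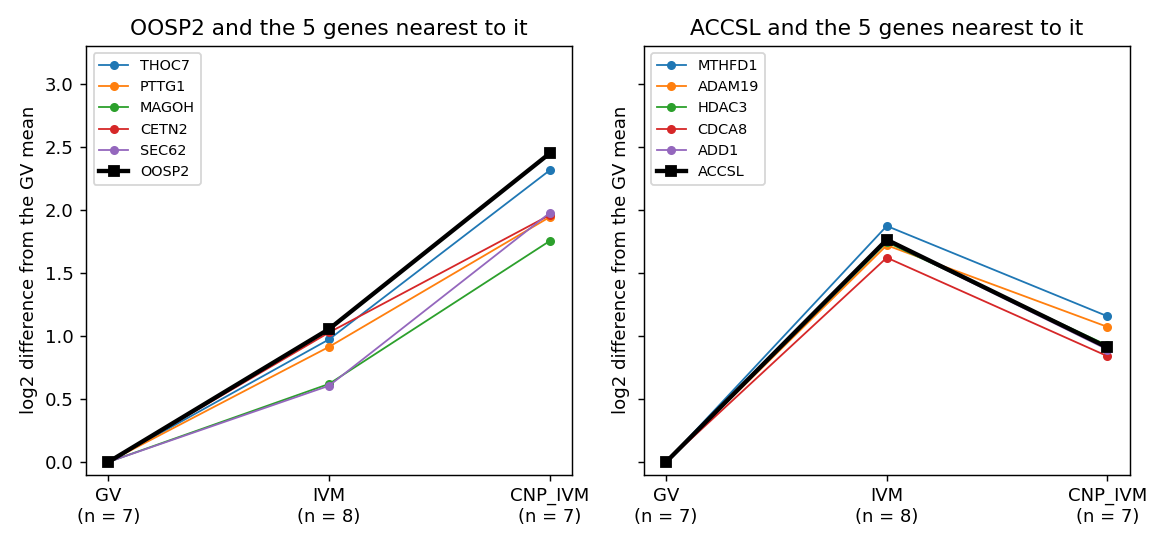
Log2 difference from the GV group mean (pseudocount 1 CPM) in the 3 groups for OOSP2 (left) and ACCSL (right), each as a thick black line, with the 5 genes nearest to it. Genes near OOSP2 go up from IVM to CNP_IVM (OOSP2 1.05 to 2.45), while those near ACCSL are lower in CNP_IVM than in IVM (ACCSL 1.76 to 0.91). The genes were chosen for likeness to the member over these same oocytes, so this follows from the choice.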

How the data were processed

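The authors deposited 1 table named for TPM, with 1 column per library. The deposited values are CPM: dividing a library by what 1 read is worth, a step shared by all its genes, turned 100% of its values into whole reads (tolerance 0.01 read). Listed genes held 97.1 to 97.6% of each library. Per the submitters' processing notes, the tools were HISAT2 2.2.1, featureCounts 2.0.1, edgeR, FastQC and Trim Galore 0.6.7, in no stated order. The notes name the mouse build GRCm39 while the gene names are cattle symbols, so no coordinates are printed. The RefSeq gene table of cattle assembly ARS-UCD2.0 held 13356 of the 13502 names and gave gene order. It holds no sequences or transcript lengths, so promoters, proteins and ranks per kilobase were not analysed.

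Each sample description names its column, and titles gave the groups. The filter kept genes that reached 1 CPM in 6 or more libraries. Log2 differences are of group means plus 1 CPM, so differences of low genes come out too small. For the ratio of ACCSL to OOSP2 they are differences between group means of the log2 ratio of each oocyte. Ratios and SDs used Python 3.11.15. TMM factors came from edgeR 4.0.16 on recovered reads. The count test that recovered reads allow was not run, because each group counts as 1 sample. Steps were tested on simulated reads.

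OOSP2, ACCSL and the gene lists were chosen with earlier results of these data known. Named genes followed a rule: the members; detected family members and ACCS; the 5 genes nearest each member; the 5 most abundant genes per group (of which the highest is given); genes beside each member in order of group mean; genomic neighbours; up to 3 oocyte-list genes per direction and comparison; and BTG4, GDF9, BMP15 and ZP3. SPTLC1, SPTLC2, ALAS1, KIT and KPNA7 were picked after their values were seen. List counts, nearest genes and GV shares without GV replicate 9 were added after the data were seen. Alternatives were other library scales, pseudocounts and filters, medians, means of log2 values, and leaving out each oocyte.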

Additional observations from a re-analysis of the deposited data

Results flagged for a closer look

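GV replicate 9 was apart from the other GV oocytes in 2 of the 12 sets of values checked (the levels of OOSP2 and ACCSL, their sum and their ratio in each group). Its OOSP2 level of 387 CPM lay below the next lowest, 1499 CPM, by 0.751 of the whole range of the group, which is past Dixon's 95% limit for 7 values. Its ratio of ACCSL to OOSP2, 6.42, lay above the next highest, 3.45, by 0.582 of the range, which is just past that limit. Both rest on the same low OOSP2 value, since ACCSL in this oocyte, at 2487 CPM, was within the range of the other 6. Chance alone marks about 1 in 20 such sets. This is the oocyte with conflicting labels and the fewest genes at 1 CPM or more among the GV oocytes.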

How the results depend on the processing

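No paired analysis was possible because the results come from no test and the replicate numbers of single oocytes are names. OOSP2 stayed higher in IVM and CNP_IVM than in GV, and higher in CNP_IVM than in IVM, under every alternative run. ACCSL stayed higher than in GV and lower in CNP_IVM than in IVM. Leaving out 1 oocyte at a time gave log2 differences for OOSP2 of 0.89 to 1.14 (IVM against GV), 2.28 to 2.51 (CNP_IVM against GV) and 1.30 to 1.50 (CNP_IVM against IVM), and for ACCSL of 1.67 to 1.93, 0.84 to 1.08 and -0.96 to -0.76. Sides of the 2-fold line changed as follows. OOSP2 in IVM against GV was 0.79 with quantile normalization and 0.65 with medians. ACCSL in CNP_IVM against GV was 1.47 with TMM factors, 1.34 with median-of-ratios size factors and 1.18 with medians, and in CNP_IVM against IVM -1.14 with quantile normalization. With TMM or median-of-ratios factors every CNP_IVM oocyte was above every GV oocyte in ACCSL, and with quantile normalization IVM and GV overlapped in ACCSL. The mean log2 ratio of ACCSL to OOSP2 in IVM against GV differed by 0.62, by 0.88 without GV replicate 9, and by 1.45 with medians. Ranks per kilobase were not run.

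Counts over all genes depended on the scale. Percentages in brackets are the share that was higher among the genes at least 2-fold apart in either direction, not among all genes. In IVM against GV 1880 genes were at least 2-fold higher and 3917 lower (32.4% higher), against 3151 higher with quantile normalization (52.3%; 43.8% with TMM factors) and 2390 lower with a filter of 10 CPM. In CNP_IVM against GV 1818 were higher and 4977 lower (26.8% higher), against 3012, 2738 and 3540 higher with TMM, median-of-ratios and quantile scaling (43.2%, 39.4% and 52.6%), and 3196 lower with quantile scaling and 3009 with a filter of 10 CPM. In CNP_IVM against IVM 220 were higher and 1754 lower (11.1% higher), against 457, 442 and 484 higher and 992, 977 and 721 lower with the same 3 scalings (31.5%, 31.1% and 40.2%). A pseudocount of 0.1 gave 395 higher and 2793 lower there, and one of 5 gave 113 and 743. Leaving out 1 oocyte gave 170 to 260 higher and 1389 to 2060 lower. The cause of these shifts was not tested. The members had 14209 or more reads each in every library, the fewest being those of OOSP2 in GV replicate 9. The part of depth was not tested.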

Other observations

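Of the 34 oocyte genes other than OOSP2 and ACCSL, 7 had the group means in the order of ACCSL (IVM, then CNP_IVM, then GV): BMP15, KIT, KPNA7, NLRP14, SOHLH2, WEE2 and ZAR1L. The order of OOSP2 (CNP_IVM, then IVM, then GV) was that of 4, namely BTG4, DNMT1, DPPA3 and OTX2. The reverse of it was the order of 18, and the other 5 had other orders. This tally was made after the values were seen, and many of these means differ by less than the spread between oocytes. The orders were not counted over all genes. There the median log2 difference was also below 0, at -0.28 for IVM less GV and -0.28 for CNP_IVM less IVM. Nothing is therefore read from the tally. BMP15, an oocyte growth factor, averaged 764 CPM before culture (542 to 1085 CPM), 2250.3 CPM after IVM (1320.3 to 3360 CPM) and 1219 CPM after CNP_IVM (907 to 1567 CPM). WEE2, the oocyte kinase that restrains CDK1, averaged 633, 2124 and 1093 CPM, with ranges of 488 to 838, 798 to 4913 and 875 to 1291 CPM. KIT, the receptor for kit ligand, averaged 42.4, 117 and 64.9 CPM, and KPNA7, an oocyte importin, 2251, 4749 and 2643 CPM. In IVM replicates 5, 6 and 7, where ACCSL was low for the group, WEE2 was at 1175, 1015 and 798 CPM, below the 1951 to 4913 CPM of the other 5. BMP15 did not follow that split: it was at 2953 CPM in replicate 5 and 1347 CPM in replicate 10. GDF9, a growth factor that acts with BMP15, averaged 820.3, 695 and 378 CPM in GV, IVM and CNP_IVM.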
